A study of Homo sapiens with 9 samples.

Results

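The 10 genes described here flank CHD7 on the long arm of chromosome 8, between bands 8q11 and 8q13. They are SDCBP, NSMAF, TOX, CA8 and RAB2A before CHD7 in chromosome order, and CLVS1, ASPH, NKAIN3, GGH and TTPA after it. They were listed by name and position, with earlier results of these data known, and make up 10 of the 26240 genes in the deposited count table. The comparison asks whether deleting CHD7 altered the transcripts of nearby genes, or whether the neighbourhood shows the level that a regional change in copy number would give.

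The libraries are RNA-seq of definitive endoderm made from H9, an established human embryonic stem cell line, in 3 genotypes with 3 libraries each: CHD7+/+ (wild type), CHD7+/- (heterozygous) and CHD7-/- (homozygous). The mutants were made with CRISPR/Cas9. All 9 libraries share the H9 background and the endoderm differentiation, and no other agent or time point is named. The labels give neither the deleted interval nor the number of clones, nor whether the libraries of a genotype came from separate cultures or days, and the p-values therefore cover library-to-library spread alone, which may be technical.

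CHD7 is a chromatin remodelling ATPase that binds methylated histone H3 and acts largely at enhancers, and its loss of function causes CHARGE syndrome. A cut or deletion in a gene can alter neighbours in cis when it removes regulatory DNA or changes local chromatin. Loss or gain of a chromosome segment instead shifts the expressed genes of that segment together, because transcript level largely follows copy number.

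CHD7 lies at chromosome 8, 60678778 to 60868028 on the plus strand (GRCh38, GENCODE release 29; all coordinates are from that annotation). In CPM, which scales each count to the size of its library after TMM adjustment, it measured 194.9, 194.9 and 189.2 in wild-type libraries, 110.4, 130.5 and 129.2 in the heterozygous ones and 56.1, 43.0 and 55.5 in the homozygous ones. The groups did not overlap. By edgeR's quasi-likelihood test, the level was 63.9% of wild type in heterozygous cells (95% interval 54.6% to 74.8%, adjusted p = 0.00579) and 26.6% in homozygous cells (22.6% to 31.4%, adjusted p = 5.25e-07). The transcript was therefore graded with genotype but still counted in every homozygous library. Which part of the gene those reads cover cannot be read from counts per gene.

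Total counts ran from 11854173 to 37519729 per library, and 16837 genes passed the filter on low counts and were tested. A gene is called changed here at a Benjamini-Hochberg adjusted p below 0.05 over those genes. Calls numbered 1293 (7.68% of genes) in homozygous against wild type, 313 (1.86%) in heterozygous against wild type and 372 (2.21%) in homozygous against heterozygous cells, and each pair of these comparisons shares a group of libraries. Omitting wild-type replicate 2 or 3 brought the first count to 651 or 700, and omitting homozygous replicate 3 to 2118. The second was 135 and 130 without wild-type replicates 2 and 3, 173 and 147 without heterozygous replicates 1 and 2, and 624 without homozygous replicate 3. The third was 228, 238, 242, 141 and 211 without wild-type replicate 2, wild-type replicate 3, heterozygous replicate 1, heterozygous replicate 2 and homozygous replicate 2. All 8 definitive endoderm markers (SOX17, FOXA2, CXCR4, GATA4, GATA6, EOMES, CER1 and GSC) were counted in every genotype.

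Most measured neighbours of CHD7 did not differ between genotypes past the threshold of the test, which also held for most genes tested. In homozygous cells, 1 of the 8 tested neighbours, ASPH, fell past the threshold, to 72.7% of wild type, and none rose. Of all genes tested, 7.68% were called in that comparison. In heterozygous cells none of the 8 was called, beside 1.86% of all genes. CLVS1 and TTPA had too few counts to test.

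In wild-type cells the neighbours spanned a wide range of abundance. Per kilobase of annotated exon, SDCBP was highest at 58.5 ± 0.331 CPM (SD, n = 3), followed by RAB2A at 19.0 ± 0.466, GGH at 14.6 ± 0.187, NSMAF at 4.96 ± 0.339 and ASPH at 3.11 ± 0.102. TOX followed at 0.791 ± 0.161, NKAIN3 at 0.248 ± 0.119, CA8 at 0.21 ± 0.071, TTPA at 0.0312 ± 0.0447 and CLVS1 at 0.00495 ± 0.00573. NKAIN3 and CA8 overlapped in that order, as did TTPA and CLVS1, while the other neighbouring ranks were separated in every wild-type library. NKAIN3 and CA8 changed places in heterozygous cells, at 0.13 ± 0.0394 and 0.163 ± 0.00836 CPM per kilobase, and no other ranks did so in either mutant. Among the 111 genes of the table within 10 Mb of CHD7, SDCBP ranked 3 by mean level per kilobase over the 9 libraries, after SOX17, the endoderm transcription factor, and RPS20, a ribosomal protein gene.

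**Figure D1:**
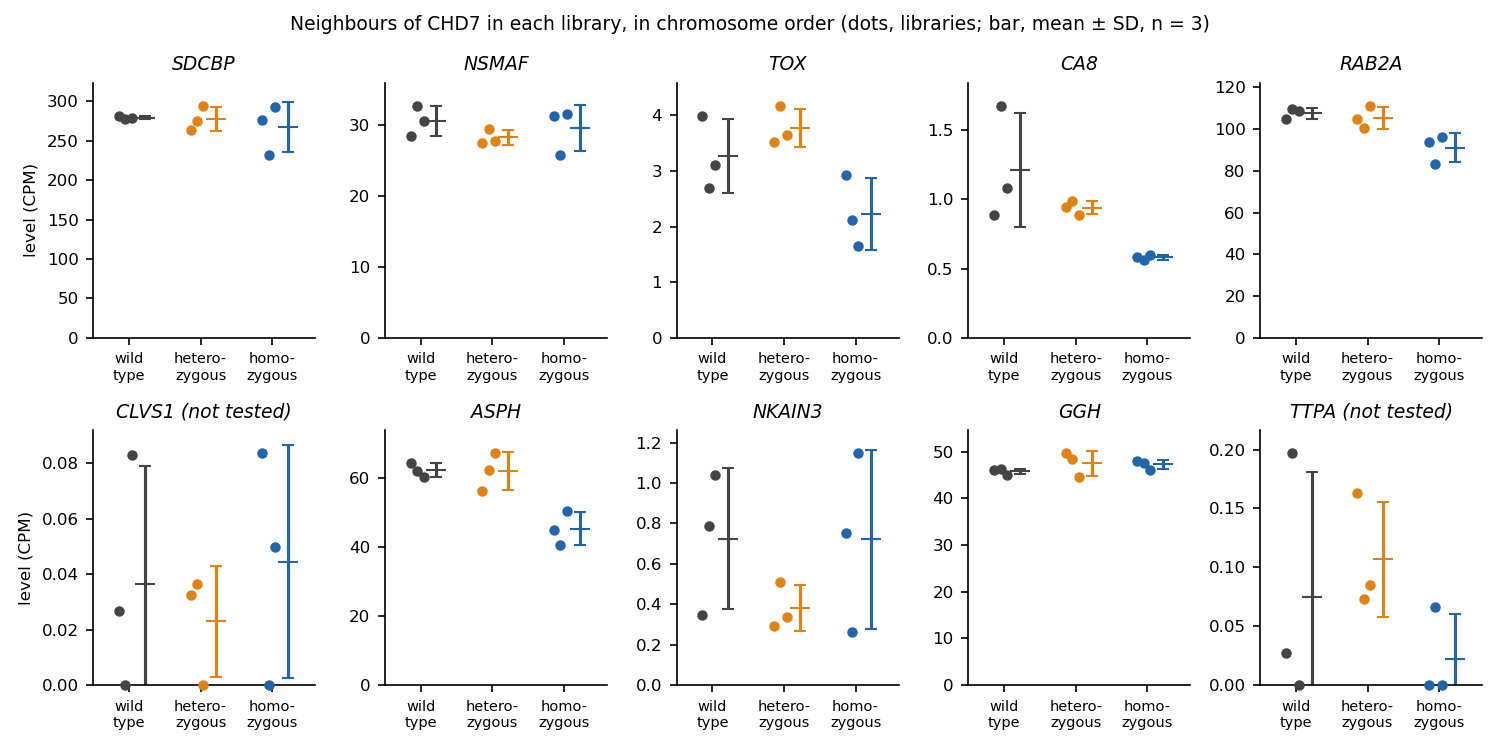
Level of each listed neighbour of CHD7 in CPM (y axis, from 0, a different scale in each panel) by genotype (x axis). Dots are libraries and the bars beside them are the mean ± SD of 3; in RAB2A, CA8 and ASPH all 3 homozygous libraries lie below all 3 wild-type libraries, while SDCBP, NSMAF, NKAIN3 and GGH overlap.

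The genes of membrane traffic and membrane-linked signalling come first, since they include the nearest neighbour. RAB2A, a small GTPase of traffic between the endoplasmic reticulum and the Golgi, lies at 60516857 to 60623627 and ends 55.2 kb before CHD7. Its level was 104.7, 109.6 and 108.6 CPM in wild-type libraries, 104.8, 100.3 and 111.0 in heterozygous ones and 94.0, 83.4 and 96.1 in homozygous ones. All 3 homozygous libraries were the lowest of the 9, and the other genotypes overlapped. The log2 fold change against wild type was -0.24 (SE 0.08, 95% interval -0.42 to -0.07) in homozygous cells, with an edgeR adjusted p of 0.0923, and -0.03 (interval -0.20 to 0.14, adjusted p = 0.918) in heterozygous cells. Homozygous against heterozygous cells gave -0.21 (SE 0.08, adjusted p = 0.2). The listed gene closest to CHD7 therefore passed the threshold in no comparison.

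SDCBP encodes syntenin-1, a PDZ scaffold of exosome formation and syndecan trafficking, and NSMAF encodes FAN, an adaptor between the TNF receptor and neutral sphingomyelinase. The pair lies side by side about 2 Mb before CHD7, at 58552924 to 58582860 and 58583504 to 58659844. SDCBP measured 281.2, 278.1 and 279.2 CPM in wild-type, 264.0, 274.6 and 293.9 in heterozygous and 276.6, 232.2 and 292.8 in homozygous libraries. The genotypes overlapped, with the lowest value in homozygous replicate 2. Its log2 fold changes against wild type were -0.07 (interval -0.26 to 0.13, edgeR adjusted p = 0.701) in homozygous and -0.01 (-0.20 to 0.18, adjusted p = 0.982) in heterozygous cells. NSMAF ranged from 28.5 to 32.7 CPM in wild-type, 27.5 to 29.5 in heterozygous and 25.9 to 31.6 in homozygous libraries. It was at -0.05 (-0.28 to 0.17, adjusted p = 0.805) and -0.11 (-0.33 to 0.11, adjusted p = 0.704) in homozygous and heterozygous cells. For both genes the intervals end well short of a log2 value of -1, the mark used here for 1 copy in place of 2. CHD7 itself in heterozygous cells was at -0.65 (interval -0.87 to -0.42), which also ends short of that mark.

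CLVS1, which encodes clavesin 1, a lipid-binding protein of neuronal clathrin-coated vesicles, is the next protein-coding neighbour after CHD7, starting 189.1 kb beyond it at 61057158. It had 3, 2 and 2 counts summed over the wild-type, heterozygous and homozygous libraries. Those sums are at or under the limit of 3 counts that a count of 0 allows, so no fold is given and no difference was detectable at this depth. CLVS1 also overlaps ASPH by 1090 bases on the opposite strand, and the strand setting of the counting is not stated in the labels or notes.

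ASPH was the 1 neighbour called by edgeR. It encodes aspartyl/asparaginyl beta-hydroxylase of the endoplasmic reticulum, which hydroxylates EGF-like domains, and the same locus makes junctin and junctate, proteins of calcium handling. The gene occupies 61500556 to 61714640 on the minus strand, so that its 3′ end is the nearer one, 632.5 kb after the end of CHD7. Its level was 64.6, 62.1 and 60.5 CPM in wild-type libraries, 56.3, 62.6 and 67.3 in heterozygous ones and 45.1, 40.8 and 50.4 in homozygous ones. Every homozygous library lay below all 6 others, and the heterozygous libraries surrounded the wild-type ones. In homozygous cells ASPH fell to 72.7% of wild type (95% interval 62.7% to 84.3%), or -0.46 on the log2 scale (SE 0.10, edgeR adjusted p = 0.0126). It also fell against heterozygous cells, by -0.45 (SE 0.10, adjusted p = 0.0343), while heterozygous against wild type was -0.01 (interval -0.22 to 0.20, adjusted p = 0.988). Against wild type, the call did not outlast the omission of wild-type replicate 2 (adjusted p = 0.0584) or homozygous replicate 1 (0.0509), with the fold change between -0.542 and -0.385 whichever library was left out. The call against heterozygous cells was lost in 7 of the 9 omissions, with adjusted p of 0.0517, 0.072 and 0.0659 without wild-type replicates 1, 2 and 3, 0.13 and 0.0961 without heterozygous replicates 2 and 3, and 0.0848 and 0.0979 without homozygous replicates 1 and 2. A test against a change of 1.5-fold gave an adjusted p of 1 for both.

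In bulk RNA, fewer cells of a type and less RNA per cell cannot be told apart, and marker genes of several cell types also differed between genotypes. Against wild type, ELAVL4 and STMN2 were called in both mutants, and FOXA2, CER1, KDR, GATA3, TFAP2C and HNF4A in homozygous cells alone. The summed level of the 8 endoderm markers was 10330 to 11130 CPM in wild-type, 8629 to 9664 in heterozygous and 6964 to 8100 in homozygous libraries, with FOXA2 and CER1 called lower in homozygous against wild-type cells. CER1, at a mean of 7245 CPM in wild-type and 4630 in homozygous libraries, makes up most of that sum and of its difference, while the fitted levels of CXCR4, GATA4, GATA6 and GSC in homozygous cells were 91.5% to 94.9% of wild type and not called. The 5 trophoblast and amnion markers summed to 9.95 to 12.7 CPM in wild-type, 13.4 to 13.9 in heterozygous and 23.5 to 31.2 in homozygous libraries, with GATA3 and TFAP2C called higher in homozygous cells. TFAP2C, at means of 9.71, 12.1 and 22.6 CPM, makes up most of that sum and of its difference. ISL1 was not called. TFAP2A had 9, 8 and 1 summed counts in wild-type, heterozygous and homozygous libraries and KRT7 had 0, 1 and 2, and neither was tested. The 4 neuronal markers summed to 20.7 to 24.1 CPM in wild-type, 37.3 to 38.1 in heterozygous and 65.6 to 75.2 in homozygous libraries, with ELAVL4 and STMN2 called higher in both mutants. STMN2, at means of 7.16, 19.8 and 49.4 CPM, makes up most of the difference, and TUBB3 of the same list was at 59.7% of wild type in heterozygous and 87.0% in homozygous cells, not called. Of the hepatic and visceral endoderm markers, 4 of 5 are in the table, and they summed to 27.7 to 31.4, 25.4 to 29.1 and 43.0 to 48.3 CPM, with HNF4A called higher in homozygous cells. HNF4A, at means of 22.7, 21.8 and 39.0 CPM, makes up nearly all of the difference. APOA1 was at 108.6% of wild type in homozygous cells and not called. AFP had 9, 13 and 1 summed counts in the 3 genotypes and ALB had 2, 6 and 7, and neither was tested. The 5 mesoderm markers summed to 43.4 to 58.9, 32.4 to 41.4 and 20.8 to 34.4 CPM, with KDR called lower in homozygous cells and HAND1 at 0 counts in heterozygous cells. KDR, at means of 48.6, 33.6 and 23.5 CPM, makes up nearly all of that sum and of its difference. In homozygous cells TBXT was at 46.1% and TBX6 at 142.2% of wild type, neither called, and MESP1 and HAND1 had too few counts to test. The 5 pluripotency markers summed to 228 to 276 CPM in wild-type, 317 to 417 in heterozygous and 224 to 319 in homozygous libraries, with none called against wild type. The 4 neuroectoderm markers summed to 1048 to 1059, 987 to 999 and 888 to 980 CPM, with none called and SOX1 at 0 counts in both mutants. OTX2 and NES, at means of 672.5 and 379.6 CPM in wild type, make up nearly all of that sum. PAX6 was at 0.46 CPM and SOX1 at 5 summed counts in wild type. Between the mutants, where ASPH was also called, NANOG was called lower in homozygous cells (edgeR adjusted p = 0.0401) and GATA3, TFAP2C, HNF4A and STMN2 higher. The part of these markers' cells in the ASPH result was not tested.

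The other genes of metabolism differed in abundance and none was called. GGH, gamma-glutamyl hydrolase, which trims the glutamate chain of stored folates, lies at 63015079 to 63039171, 2147 kb after CHD7. It measured 46.0, 46.2 and 45.1 CPM in wild-type, 49.6, 48.5 and 44.5 in heterozygous and 48.1, 47.6 and 46.1 in homozygous libraries. Its log2 fold changes were 0.05 (interval -0.13 to 0.22, edgeR adjusted p = 0.765) in homozygous and 0.06 (-0.12 to 0.23, adjusted p = 0.83) in heterozygous cells. All genotypes overlapped.

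CA8 encodes a carbonic anhydrase-related protein without catalytic activity that binds the inositol trisphosphate receptor and is known from Purkinje cells. It lies at 60187347 to 60281412, ending 397.4 kb before CHD7. Its level was 0.885, 1.67 and 1.08 CPM in wild-type, 0.944, 0.987 and 0.89 in heterozygous and 0.585, 0.563 and 0.598 in homozygous libraries, from 110, 77 and 36 counts summed over each genotype. The homozygous libraries were the lowest 3, and the wild-type libraries were the most scattered. The log2 fold change in homozygous cells was -1.05 (SE 0.32, interval -1.76 to -0.35), the most negative of the neighbours in that comparison, but its edgeR adjusted p was 0.0701. It moved to -0.74 without wild-type replicate 2, and the adjusted p stayed between 0.0506 and 0.32 whichever single library was left out. In heterozygous cells the value was -0.36 (interval -0.99 to 0.27, adjusted p = 0.664). At this depth a change to 1 copy in place of 2 lies within the homozygous interval, and so does a much smaller one.

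TTPA, the alpha-tocopherol transfer protein that loads vitamin E into lipoproteins in liver, lies at 63048553 to 63086053 on the minus strand, with its nearer, 3′ end 2181 kb after CHD7. It had 7, 9 and 2 counts summed over the wild-type, heterozygous and homozygous libraries, with exact Poisson intervals of 2.81 to 14.4, 4.12 to 17.1 and 0.242 to 7.22 that cover counting error only. The intervals overlap. TTPA and CLVS1 were tested only when the filter on low counts was dropped, and edgeR adjusted p for homozygous against wild type was then 0.695 and 1.

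TOX, an HMG-box transcription regulator best known from T cell development, lies at 58805418 to 59119208, 1560 kb before CHD7. It measured 3.996, 2.69 and 3.11 CPM in wild-type, 3.52, 4.17 and 3.65 in heterozygous and 2.93, 2.12 and 1.65 in homozygous libraries. The homozygous libraries lay below the heterozygous ones but overlapped the wild-type ones. TOX was at -0.59 (SE 0.24, interval -1.11 to -0.08, edgeR adjusted p = 0.152) in homozygous cells and at 0.20 (interval -0.27 to 0.68, adjusted p = 0.757) in heterozygous cells, both against wild type. Between the mutants the value was -0.80 (SE 0.24, interval -1.31 to -0.28) with an adjusted p of 0.105, and DESeq2 gave -0.79 with an adjusted p of 0.045. TOX-DT, an antisense RNA that shares 169 bases with TOX, was at 0.10 in homozygous against wild-type cells (edgeR adjusted p = 0.849).

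NKAIN3, a neuronal membrane protein that interacts with the sodium-potassium pump, starts 1381 kb after CHD7 at 62248591. Its level was 0.349, 0.787 and 1.04 CPM in wild-type, 0.293, 0.512 and 0.339 in heterozygous and 0.752, 0.265 and 1.147 in homozygous libraries. The values scattered within each genotype and overlapped between them. NKAIN3 was at -0.04 (interval -1.19 to 1.11, edgeR adjusted p = 0.975) in homozygous and -0.88 (-2.06 to 0.30, adjusted p = 0.531) in heterozygous cells, so neither a fall to 1 copy nor an unchanged level falls outside the interval in either mutant.

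**Figure D2:**
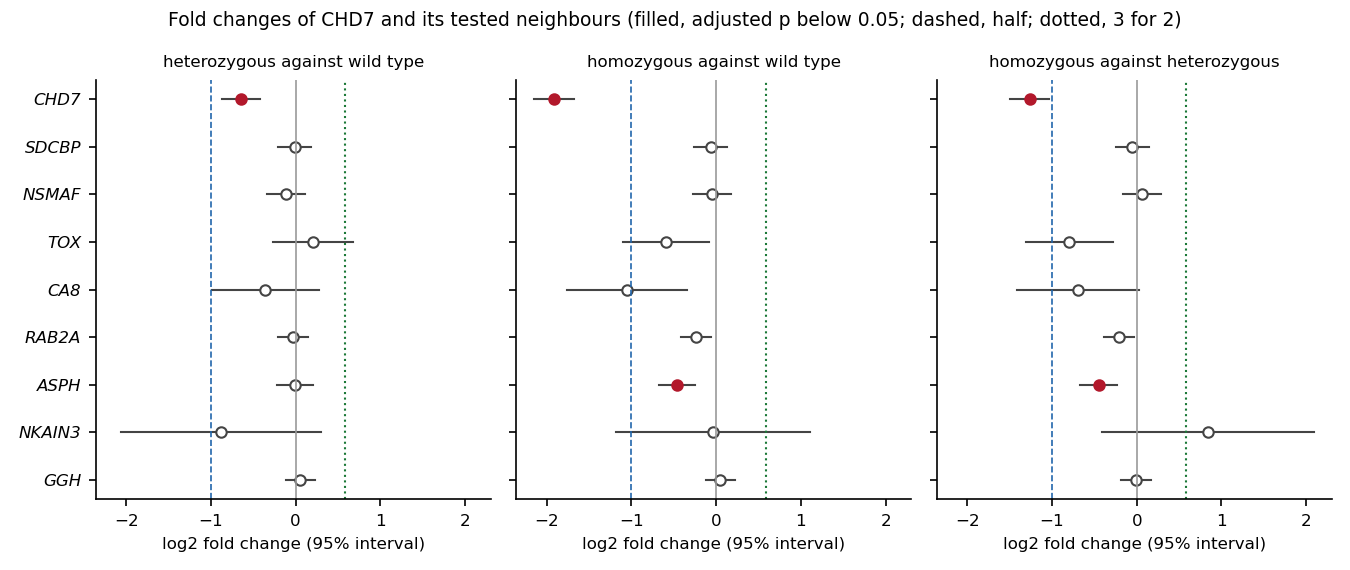
Log2 fold change (x axis) of CHD7 and its 8 tested neighbours in chromosome order (y axis) in the 3 comparisons, with 95% intervals as bars. Filled points passed an adjusted p of 0.05, the dashed line is the log2 value of -1 for 1 copy in place of 2 and the dotted line 0.58 for 3 in place of 2; ASPH at -0.46 and -0.45 is the neighbour past the threshold, and neither of its intervals there reaches -1.

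Counted together, 1 of 8 tested neighbours was called in homozygous against wild-type cells, beside 7.68% of all genes tested, and that gene was lower, as were 4.18% of all genes (3.5% were higher). In heterozygous against wild-type cells the count was 0 of 8, beside 1.86% of all genes (1.04% lower, 0.82% higher), with 0 at an unadjusted p under 0.05, where 13.5% of all genes stood; DESeq2 and limma-voom also called 0. Between the mutants it was 1 of 8, beside 2.21% of all genes (1.22% lower, 0.986% higher). With 8 genes, 1 call is the smallest count above 0, so these shares cannot be told apart from the background. At an unadjusted p under 0.05 there were 4 of 8 in homozygous against wild type and 3 of 8 between the mutants, against 23.2% and 18.3% of all genes.

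All 3 homozygous libraries were below all 3 wild-type libraries for RAB2A, CA8 and ASPH, 3 of 8 neighbours, beside 15.7% of all genes tested. The same held against the heterozygous libraries for these genes and TOX, 4 of 8 beside 10.5%. Heterozygous and wild-type libraries overlapped for all 8, while 22.2% of all genes were apart, 11.1% lower and 11.1% higher. No neighbour was higher in all libraries of a group, beside 13.2% of all genes in homozygous against wild type and 9.02% between the mutants. Apart in either direction were 28.9% of all genes in the first of these comparisons and 19.5% in the second. The median log2 fold change of the 8 was -0.15 in homozygous and -0.02 in heterozygous cells against wild type and -0.13 between the mutants, beside 0.01, 0.0037 and 0.0068 over all genes tested.

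Set against copy number, the heterozygous intervals were narrow for most neighbours. Of 8, 6 excluded both a log2 value of -1 (1 copy in place of 2) and 0.58 (3 in place of 2), beside 66.7% of all genes tested. NKAIN3 was the neighbour whose interval held -1 and TOX the one whose interval held 0.58, while the lower bound of CA8 was -0.99. In homozygous against wild-type cells 5 of 8 excluded both (62.5% of all genes), and TOX, CA8 and NKAIN3 held -1. Between the mutants it was again 5 of 8 (64.6% of all genes), with TOX and CA8 holding -1 and NKAIN3 holding 0.58. The heterozygous interval of CHD7 itself, -0.87 to -0.42, excluded both values too. Whether transcript level follows copy number closely enough for these marks was not tested.

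**Figure D3:**
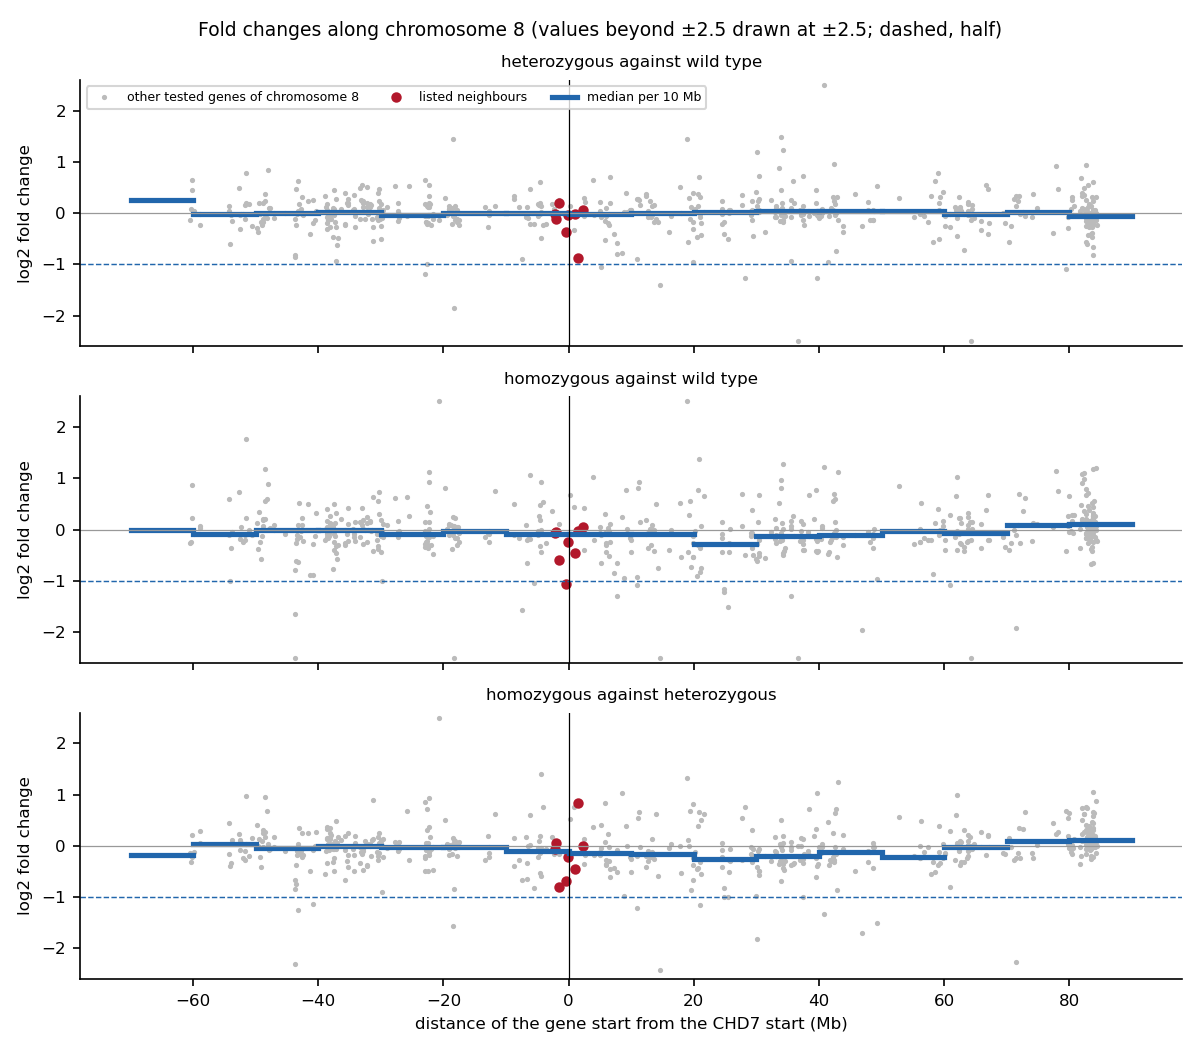
Log2 fold change (y axis) of every tested gene of chromosome 8 by distance of its start from the start of CHD7 in Mb (x axis, CHD7 left out), for the 3 comparisons. Red points are the listed neighbours and blue lines the median of each 10 Mb; in heterozygous against wild-type cells the medians lie between -0.05 and 0.05 apart from the end bin of 4 genes, at 0.27, and none of the blue lines in the 3 panels reaches the dashed line at -1.

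The neighbourhood as a whole was described over every gene of the table within 10 Mb of CHD7, which is 111 genes with 64 tested. Where a library was left out, the filter on low counts was rerun, so the genes behind these and later medians could change. In heterozygous against wild-type cells its median log2 fold change was -0.0087, beside -0.0038 for the 517 tested genes on the rest of chromosome 8, and it stayed between -0.02 and 0.05 whichever library was left out. In homozygous cells the median was -0.09 within 10 Mb and -0.04 on the rest of the chromosome, and between the mutants it was -0.13 and -0.02. Whole-chromosome medians ran from -0.11 to 0.06 over 23 chromosomes in homozygous against wild-type cells, and the 10 Mb value lay within that range, except that it was -0.14 without homozygous replicate 3. Between the mutants they ran from -0.12 to 0.10, and the 10 Mb value lay just below. That value was -0.07, -0.07 and -0.08 without heterozygous replicate 3, homozygous replicate 1 and homozygous replicate 2. The chromosome medians rest on more genes, 182 to 1677 tested, and that of chromosome 8 leaves out CHD7 and its 10 Mb window. In homozygous against wild-type cells the 33 genes within 5 Mb had a median of -0.04 and the 31 genes between 5 and 10 Mb -0.19. Along the chromosome, the lowest 10 Mb median in that comparison was -0.27, over 32 genes that start 20 to 30 Mb after CHD7. The same stretch was also the lowest between the mutants, at -0.25.

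Within 1 Mb, 5 genes were tested: CA8, RAB2A, ASPH and the pseudogenes NASPP1 and KRT8P3. Their median was -0.24 in homozygous against wild-type cells, -0.03 in heterozygous cells and -0.21 between the mutants. The first value rests on few genes, and the filter on low counts was rerun with each omission, so that other genes could enter. That value was -0.13, 0.07 and -0.04 without wild-type replicates 1, 2 and 3, 0.04, 0.05 and 0.05 without heterozygous replicates 1, 2 and 3, and 0.20 and -0.05 without homozygous replicates 1 and 2. RAB2A, CA8 and ASPH themselves stayed at -0.28 to -0.18, -1.25 to -0.742 and -0.542 to -0.385 over the omissions. These shifted medians therefore cover a changed set of genes. The third value was -0.33 without any 1 of the wild-type replicates, -0.37 and -0.35 without heterozygous replicates 1 and 2, and -0.39 without homozygous replicate 3, again with the filter rerun. RAB2A, the middle of the 5 genes between the mutants, itself stayed at -0.251 to -0.149 over the omissions. NASPP1 is the nearest tested gene after CHD7, 69.7 kb beyond it, with 0.262 to 0.563 CPM in wild-type and 0.399 to 0.894 in homozygous libraries, with log2 fold change 0.67 (SE 0.41, edgeR adjusted p = 0.361). KRT8P3, which lies inside ASPH on the opposite strand, was at 0.45 (SE 0.355, edgeR adjusted p = 0.48). It measured 10.57, 9.58 and 12.17 CPM in wild-type and 9.53, 20.69 and 12.91 in homozygous libraries, and these overlapped.

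By library, the homozygous medians differed among themselves. Over the 64 genes within 10 Mb, the median log2 difference from the mean of the wild-type libraries was -0.11, -0.21 and -0.05 in homozygous replicates 1, 2 and 3, -0.03, 0.0007 and 0.03 in the heterozygous ones and -0.03, 0.03 and 0.0006 in the wild-type ones. Over the 8 tested neighbours it was -0.07, -0.44 and -0.08 in the homozygous replicates. Homozygous replicate 2 was thus the lowest library in both, and also over the 517 tested genes on the rest of chromosome 8, at -0.09. It was also the lowest of the 9 libraries for SDCBP, NSMAF, CA8, RAB2A, ASPH and NKAIN3. Without it the homozygous against wild-type value was -0.18 for RAB2A and -0.385 for ASPH, and the 5 Mb median moved from -0.04 to 0.02, while without homozygous replicate 3 it was -0.11.

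**Figure D4:**
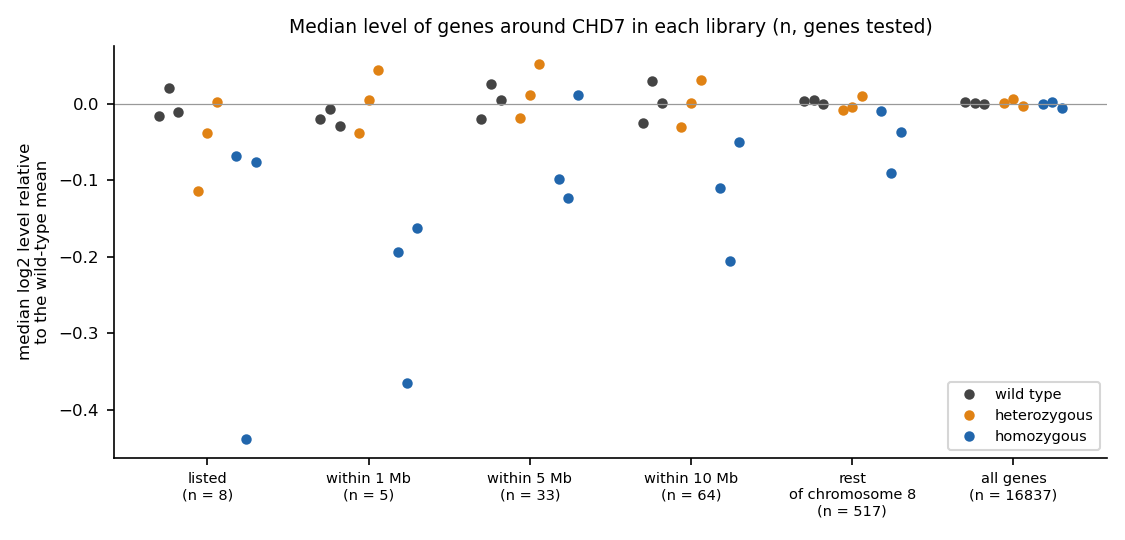
Median log2 level relative to the wild-type mean (y axis) in each of the 9 libraries for 6 groups of genes (x axis, number tested in brackets), with libraries coloured by genotype. The homozygous libraries lie at -0.07, -0.44 and -0.08 over the listed neighbours and within 0.01 of 0 over all genes, and the heterozygous libraries lie near the wild-type ones in every group but the listed neighbours, where heterozygous replicate 1 is at -0.11.

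Of the 64 tested genes within 10 Mb, 8 (12.5%) passed the threshold in homozygous against wild-type cells, 7 lower and 1 higher, beside 7.68% of all genes. In heterozygous against wild-type cells 1 of 64 was called (C8orf34-AS1, 1.56%), beside 1.86% of all genes. Between the mutants it was 1 of 64 (ASPH, 1.56%), beside 2.21% of all genes. OPRK1, the kappa opioid receptor, lies 7427 kb before CHD7 and measured 2.58, 2.82 and 3.41 CPM in wild-type, 1.43, 1.35 and 1.95 in heterozygous and 1.09, 0.662 and 1.30 in homozygous libraries. The genotypes did not overlap, and OPRK1 fell in homozygous cells by 1.57 on the log2 scale (SE 0.28, edgeR adjusted p = 0.00438). BHLHE22, a neuronal basic helix-loop-helix repressor 3712 kb after CHD7, rose from 6.12, 8.86 and 8.39 CPM in wild-type to 14.2, 13.6 and 19.4 in homozygous libraries, with log2 fold change 1.02 (SE 0.24, adjusted p = 0.0197). Omitting wild-type replicate 1 (adjusted p = 0.0781) or 3 (0.0559) ended that call.

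LYPLA1, a depalmitoylating thioesterase 6577 kb before CHD7, fell from 109.4, 116.2 and 98.1 to 74.97, 52.5 and 78.1 CPM in homozygous libraries, with log2 fold change -0.66 (SE 0.16, adjusted p = 0.0242). Its call was lost without wild-type replicates 1 (0.0649) or 2 (0.113) and without homozygous replicates 1 (0.0527) or 2 (0.0716). XKR4, of the XK family of phospholipid scramblases, was at -1.03 (SE 0.29, adjusted p = 0.0481), and that call did not outlast the omission of wild-type replicates 2 (0.144) or 3 (0.194), heterozygous replicates 1 (0.0636) or 2 (0.0735), or homozygous replicates 1 (0.119) or 2 (0.159). The XKR4 call was also lost under RLE (0.0504) and upper quartile scaling (0.0548), by limma-voom (0.0837) and with the 6 compared libraries alone (0.0764). The endoderm factor SOX17, 6218 kb before CHD7, measured 702, 716 and 732 CPM in wild-type, 667, 627 and 562 in heterozygous and 584, 642 and 663 in homozygous libraries. Both mutants lay below wild type in every library, but SOX17 was not called (log2 fold change -0.19, adjusted p = 0.197 in homozygous and -0.21, adjusted p = 0.279 in heterozygous cells). RPS20 measured 535 to 566 CPM in wild-type and 557 to 755 in homozygous libraries (0.18, adjusted p = 0.385).

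PREX2, C8orf34-AS1 and C8orf34 lie next to one another 7084 to 7463 kb after CHD7, and all of them were called lower in homozygous cells. PREX2, a guanine nucleotide exchange factor for Rac, measured 27.6, 34.7 and 31.8 CPM in wild-type and 17.97, 12.9 and 21.8 in homozygous libraries (-0.84, SE 0.21, edgeR adjusted p = 0.0265). C8orf34-AS1 measured 5.31, 6.82 and 6.73 CPM in wild-type, 3.06, 3.58 and 4.28 in heterozygous and 2.84, 2.25 and 2.69 in homozygous libraries. It was at -1.29 (SE 0.19, adjusted p = 0.00127) in homozygous cells and -0.79 (SE 0.18, adjusted p = 0.0463) in heterozygous cells. C8orf34 went from 6.06, 6.59 and 6.06 to 3.85, 3.51 and 4.54 CPM (-0.66, SE 0.18, adjusted p = 0.0436). C8orf34 and its antisense RNA overlap, so reads of the pair cannot be told apart if strand was not used in counting.

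The homozygous call of C8orf34-AS1, like that of OPRK1, held under all 18 alternatives. Its heterozygous call was lost without wild-type replicates 2 (0.269) or 3 (0.237), heterozygous replicates 1 (0.196) or 2 (0.205), or homozygous replicate 1 (0.0646). PREX2 was no longer called after omission of wild-type replicates 2 (0.118) or 3 (0.0832) or of homozygous replicates 1 (0.0783) or 2 (0.0978). C8orf34 was no longer called after omission of wild-type replicates 1 (0.083), 2 (0.173) or 3 (0.112), heterozygous replicate 2 (0.072), or homozygous replicates 1 (0.109) or 2 (0.165), or under upper quartile scaling (0.0507). The test against a 1.5-fold change ended the calls of LYPLA1, XKR4, BHLHE22, PREX2 and C8orf34 and the heterozygous call of C8orf34-AS1, with adjusted p between 0.365 and 1.

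Over the 9 libraries, the genes on other chromosomes whose log2 level followed ASPH most closely were PELI1, a ubiquitin ligase of innate immune signalling, and KLF5, a Krüppel-like transcription factor, with Pearson r of 0.987 and 0.986 among 10430 genes of at least 5 CPM. PELI1 measured 205.4, 198.9 and 195.7 CPM in wild-type, 171.4, 182.9 and 216.7 in heterozygous and 138.5, 118.4 and 152.5 in homozygous libraries. KLF5 measured 28.4, 25.9 and 24.9, then 24.1, 26.3 and 32.0, then 17.1, 16.0 and 20.5 CPM. As for ASPH, heterozygous replicate 3 was the highest and homozygous replicate 2 the lowest library of the 9 for both. The likeness is a description over libraries that share their genotype groups.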

How the data were processed

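Total RNA was sequenced by Illumina, per the labels. The authors deposited raw read counts per Ensembl gene, 1 column per library. Per the submitters' processing notes, FastQC, Trimmomatic, HISAT2, SAMtools and HTSeq and build hg38 were used, without versions or roles; the annotation release and strand setting used in counting are not stated there. Coordinates came from GENCODE release 29, matched for 25209 of 26240 genes.

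The test was edgeR 4.0.16 (R 4.3.3): filterByExpr, TMM factors of 0.973 to 1.01 (also used for CPM), and 1 quasi-likelihood fit of genotype over 9 libraries. Tests were two-sided and Benjamini-Hochberg adjusted over 16837 genes. The script was tested on simulated data. Replicate counts differed by more than sampling noise (chi-square per degree of freedom 2.55 to 30.6).

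Named genes are CHD7, the 10 neighbours, the nearest tested gene on each side, genes called within 10 Mb, the 3 most abundant there and the 2 most like each called neighbour. TOX-DT and KRT8P3 were added after their values were seen. Members and lists were chosen with earlier results of these data known. Alternatives were other scalings, filters and tools (DESeq2 1.42.0, limma 3.58.1), a replicate block, a 1.5-fold test, the 6 compared libraries alone and omission of each library; those for called non-listed genes were added after seeing the data.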

Additional observations from a re-analysis of the deposited data

How the results depend on the processing

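Values are log2 fold changes or medians of them, given for homozygous against wild type (A), heterozygous against wild type (B) and homozygous against heterozygous cells (C). Of 426 alternative values for the 8 tested neighbours 392 kept their direction and their side of the threshold, as did 53 of 54 for CHD7 and, within the spread between libraries, 137 of 171 medians. Values near 0 changed sign under upper quartile scaling (NKAIN3 in A, 0.0037; SDCBP in B, 0.0075; ASPH in B, 0.0088; GGH in C, 0.016) and under a filter of 1 CPM (ASPH in B, 0.00078; GGH in C, 0.0041). Leaving out single libraries gave -0.136 to 0.0258, -0.055 to 0.0243 and -0.128 to 0.0361 for SDCBP in A, B and C, -0.104 to 0.0413 for NSMAF in A, -0.678 to 0.47 for NKAIN3 in A, -0.0711 to 0.00984 for RAB2A in B, -0.0718 to 0.057 for ASPH in B and -0.05 to 0.0209 for GGH in C. ASPH gave -0.542 to -0.385 in A and -0.536 to -0.376 in C; its C call was also lost with the 6 compared libraries alone (-0.445, edgeR adjusted p = 0.122). Against a 1.5-fold change the calls of ASPH in A (-0.46) and C (-0.451) and of CHD7 in B (-0.646) were lost, each at an adjusted p of 1. DESeq2 called TOX in C (-0.794).

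Calls over all genes were 281, 89 and 67 in A, B and C against a 1.5-fold change, 574 and 849 in B and C by DESeq2, and 604 and 177 with 6 libraries. They ran from 651 to 2118, 130 to 624 and 141 to 377 over omitted libraries. Upper quartile scaling gave 712 higher and 607 lower calls in A, beside 589 and 704. Same-numbered replicates showed no clear pairing. Of these, 4 of 9 pairs had a correlation of deviations over 0.1 (range -0.195 to 0.245), while differently numbered pairs ran from -0.433 to 0.358. With the replicate number as a block, calls were 1503, 492 and 461, beside 1293, 313 and 372 without it. ASPH stayed called in A and C with the block (edgeR adjusted p = 0.013 and 0.0341). Whether the numbers pair the cultures is not given in the labels.

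Medians within 1 Mb were 0.028 in A with no filter, -0.46 and -0.451 in A and C over protein-coding genes alone, and -0.255 to 0.197 and -0.394 to -0.262 over omitted libraries. Within 5 Mb they were 0.0037 in A under upper quartile scaling, -0.0729 and -0.0086 in A and B over protein-coding genes, -0.0086 in B over genes of at least 5 CPM, and -0.112 to 0.0153 in A and -0.103 to -0.0329 in C over omitted libraries. Within 10 Mb they were -0.161 in A over protein-coding genes, 0.0503 and -0.0611 in B and C with no filter, and -0.0231 to 0.0477 in B and -0.171 to -0.0726 in C over omitted libraries. The filter on low counts was rerun for each omitted library, so the genes in those medians could change with the library. The cause of these shifts was otherwise not tested. Depth limits CA8, NKAIN3, CLVS1 and TTPA.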

Other observations

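In homozygous against wild-type cells, the 10 Mb medians of chromosome 8 from 10 Mb before to 50 Mb after CHD7 were -0.09, -0.09, -0.08, -0.27, -0.12 and -0.11 in order, and the 89 genes 80 to 90 Mb after CHD7 had a median of 0.10. The same last stretch was at -0.05 in heterozygous against wild-type cells and at 0.12 between the mutants. These are descriptions of genes that share a chromosome and the same libraries, with no test.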
